A study of Mus musculus with 6 samples.

Results

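In stem and progenitor cells of the marrow stroma (mesenchymal, MSPCs) of mice, 623 stretches of open chromatin were in the peak lists, cut to equal length, of all 3 libraries from mice given doxorubicin (DOX) and of no library from mice given phosphate-buffered saline (PBS). They were 0.792% of the 78613 regions obtained by merging the peaks of the 6 libraries. The choice was made on presence in lists of equal length. The peaks of each library on chromosomes 1 to 19 and X were put in order of −log10 p, and each list was cut to the length of the shortest, that of PBS replicate 3. Overlapping kept peaks were merged, and a region was taken when every DOX library and no PBS library had a kept peak in it. These regions are called DOX-only below, with one limit on the name that the deposited lists show: 530 of the 623 (85.1%) also had a weaker peak in the full list of at least 1 PBS library. Since presence and rank chose the regions, their heights and ranks are given as a description, with no test.

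The cells were taken from female mice of genotype Lepr-Cre;LSL-tdTomato+/-, in both groups, and were sorted for tdTomato. Cre expressed from Lepr marks cells that express the leptin receptor and all their descendants, so that the sort defines a lineage rather than a state. Both groups were 8 to 10 weeks old when treated and received 4 intravenous injections 1 week apart, of 5 mg/kg DOX or of PBS, and marrow was taken 8 weeks after treatment. Each group had 3 libraries, biological replicates by their titles. How many mice each library pooled, if any, was not given in the sources used here.

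Doxorubicin traps topoisomerase II on DNA and leaves double-strand breaks. ATAC-seq uses the transposase Tn5 to cut DNA where nucleosomes do not cover it, and a peak is a stretch with more cut fragments than the background. Strong peaks lie mostly at promoters and are shared by many cell types, while weaker, distant peaks are often enhancers, which differ more between cell types and states. LepR-lineage stromal cells surround marrow sinusoids, supply blood stem cells with CXCL12 and stem cell factor, and give rise to bone and fat cells of the adult marrow. In a bulk library, a higher peak can come from more cells with an open site or from more frequent opening in each cell, and these cannot be told apart.

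The DOX libraries were deeper. The background, the mean number of fragments per position recovered from the peak scores, was 1.67 to 2.22 in DOX and 0.558 to 1.27 in PBS. PBS replicate 3 stood apart as the shallowest, with the shortest list, where the other 5 libraries had 88348 to 100642 peaks. Among 30 genes of stromal identity and the niche, 25 to 27 had a summit within 1 kb of a gene end, depending on the library. Prrx1, Ly6a and Bst1 had none in any library. Of genes of other marrow cells, 5 to 6 of 20 B cell, 4 to 6 of 23 T and NK cell, 9 to 10 of 29 myeloid, 6 to 8 of 26 erythroid and megakaryocyte and 11 to 12 of 30 endothelial genes had one.

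At 12 protein-coding genes the summit of a DOX-only region fell in the listed promoter window, from 250 bases before to 50 bases after the start of transcription. They encode the receptors and channels Fgfr4, P2rx7, Gpbar1, Oxtr, Gpr19 and Gabrg3, the secreted lipocalin Lcn2, the actin regulator relative Eps8l1, the inositol phosphate kinase Ip6k2, the linker histone H1f3, the kinase complex protein Cab39l and Ccdc24. The 250 bases before the start are shown for 6 of them, as the sequences over or beside which the DOX-only peaks rose. They are 5′ to 3′ on the strand of the gene, from RefSeq (build GRCm38.p6, the assembly that mm10 displays). Capitals mark matches to the motifs searched. The windows are chr7:4460447-4460696, plus strand, for Eps8l1; chr13:55152568-55152817, plus strand, for Fgfr4; chr2:32387740-32387989, minus strand, for Lcn2. For P2rx7 the window is chr5:122643677-122643926, plus strand, for Gpbar1 chr1:74278350-74278599, plus strand, and for Oxtr chr6:112489826-112490075, minus strand.
Eps8l1: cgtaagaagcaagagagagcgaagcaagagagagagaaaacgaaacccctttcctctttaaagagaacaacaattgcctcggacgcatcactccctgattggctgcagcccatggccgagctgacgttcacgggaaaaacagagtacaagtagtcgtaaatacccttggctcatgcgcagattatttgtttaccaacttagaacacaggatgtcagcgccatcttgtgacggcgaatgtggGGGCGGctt
Fgfr4: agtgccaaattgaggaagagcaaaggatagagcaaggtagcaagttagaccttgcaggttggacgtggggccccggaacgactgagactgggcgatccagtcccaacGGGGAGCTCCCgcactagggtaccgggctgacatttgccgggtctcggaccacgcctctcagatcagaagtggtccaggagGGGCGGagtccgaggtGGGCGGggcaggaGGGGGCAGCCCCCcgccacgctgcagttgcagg
Lcn2: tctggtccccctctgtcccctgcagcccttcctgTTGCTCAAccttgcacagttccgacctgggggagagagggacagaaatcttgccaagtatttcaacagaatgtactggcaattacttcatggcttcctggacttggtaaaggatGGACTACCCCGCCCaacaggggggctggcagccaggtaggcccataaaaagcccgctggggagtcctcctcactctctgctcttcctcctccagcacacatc
P2rx7: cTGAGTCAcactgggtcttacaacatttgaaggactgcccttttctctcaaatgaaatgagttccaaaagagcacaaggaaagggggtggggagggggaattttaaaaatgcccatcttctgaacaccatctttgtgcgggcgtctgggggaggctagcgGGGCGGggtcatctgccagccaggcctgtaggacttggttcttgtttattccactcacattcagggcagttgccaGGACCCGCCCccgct
Gpbar1: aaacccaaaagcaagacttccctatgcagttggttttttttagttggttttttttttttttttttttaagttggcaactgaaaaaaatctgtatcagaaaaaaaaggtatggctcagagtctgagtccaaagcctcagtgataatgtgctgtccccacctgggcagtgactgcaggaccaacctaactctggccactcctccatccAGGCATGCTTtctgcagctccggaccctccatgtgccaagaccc
Oxtr: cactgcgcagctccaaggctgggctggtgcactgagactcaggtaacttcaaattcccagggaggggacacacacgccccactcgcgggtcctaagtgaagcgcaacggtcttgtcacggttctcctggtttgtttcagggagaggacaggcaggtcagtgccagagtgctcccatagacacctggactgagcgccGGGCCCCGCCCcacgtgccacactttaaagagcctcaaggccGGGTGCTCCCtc

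Eps8l1 had the highest median −log10 p of all 623 regions (chromosome 7, 4460552 to 4461086), with its summit 40 bp after the start. Heights are given as the pileup, the number of fragments at the summit, over the background of the same library. For Eps8l1 this was 16.9 in DOX replicate 1, 43.0 in replicate 2 and 31.9 in replicate 3. A peak of 10.0 times stood in the full list of PBS replicate 2, and PBS replicates 1 and 3 listed none. The weakest kept peak was 11.6 to 12.6 times the background in the DOX libraries, 12.6 and 12.8 times in PBS replicates 1 and 2 and 8.97 times in PBS replicate 3. The pileup behind the 3 DOX values was 29, 72 and 71 fragments, so DOX replicate 1 lay well below the other 2.

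Fgfr4, which encodes a receptor of fibroblast growth factors, had its region at the start (chromosome 13, 55152652 to 55152895; summit at -20 bp). In DOX the peak was 16.3, 21.5 and 19.3 times the background, and 11.02 times in PBS replicate 1. The other PBS libraries listed none. The 3 DOX values lay above the single PBS value, an order that the rule favours.

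Lcn2 encodes lipocalin 2, which binds siderophores and withholds iron from bacteria. Its region lay upstream of the start (chromosome 2, 32387765 to 32388103; summit at -202 bp). The peak was 21.5, 13.2 and 16.2 times the background in DOX, and 12.8 times in PBS replicate 2 alone among the PBS libraries. That PBS peak was tied with the weakest kept peak of its library, so the membership of Lcn2 rests on the order in which tied peaks were listed. The match TTGCTCAA to the C/EBP motif began 216 bases before the start, next to the summit.

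P2rx7, an ATP-gated ion channel, had a region of 901 bp across its start (chromosome 5, 122643667 to 122644567; summit 11 bp after the start). It reached 18.0, 15.5 and 19.8 times the background in DOX and 12.6 and 12.8 times in PBS replicates 1 and 2, which were again the cutoff values of those lists. Gpbar1, the cell surface receptor of bile acids (chromosome 1, 74278519 to 74278784), had 12.2, 17.3 and 23.8 times in DOX and 11.8 times in PBS replicate 1. DOX replicate 1 thus stood next to the PBS value for Gpbar1.

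Oxtr, the oxytocin receptor, had a region across its start (chromosome 6, 112489638 to 112490056; summit 29 bp after the start). Its peak was 15.7, 16.1 and 17.5 times the background in DOX and 12.6 and 8.21 times in PBS replicates 1 and 2. The PBS replicate 1 peak was tied with the cutoff. A second Oxtr region (chromosome 6, 112484366 to 112484734) missed the rule by the fewest ranks: it ranked 54006 and 52893 in DOX replicates 1 and 2 and 65463 in DOX replicate 3, a single rank below the last kept peak. Its −log10 p there was tied with that peak, so the order of tied peaks placed it outside.

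The remaining start-site regions had values in the same range or lower. Gpr19, an orphan receptor, Gabrg3, a subunit of the GABA-A receptor, Ip6k2, H1f3, Cab39l and Ccdc24 had median heights in DOX of 12.8 to 17.3 times the background, and each also had a peak, ranked below the cutoff, in the full lists of both PBS replicates 1 and 2. By height these were not always lower: Ip6k2 had 12.6 and 12.8 times in PBS replicates 1 and 2 and 12.2 in DOX replicate 1. At Ccdc24 a single library carried the height, with 30.1 times the background in DOX replicate 3 beside 12.8 and 12.6 in the other 2. Of the 12 regions, those of Eps8l1, Fgfr4, Cab39l, Gpbar1 and Gabrg3 did not depend on the order of tied peaks.

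**Figure D1:**
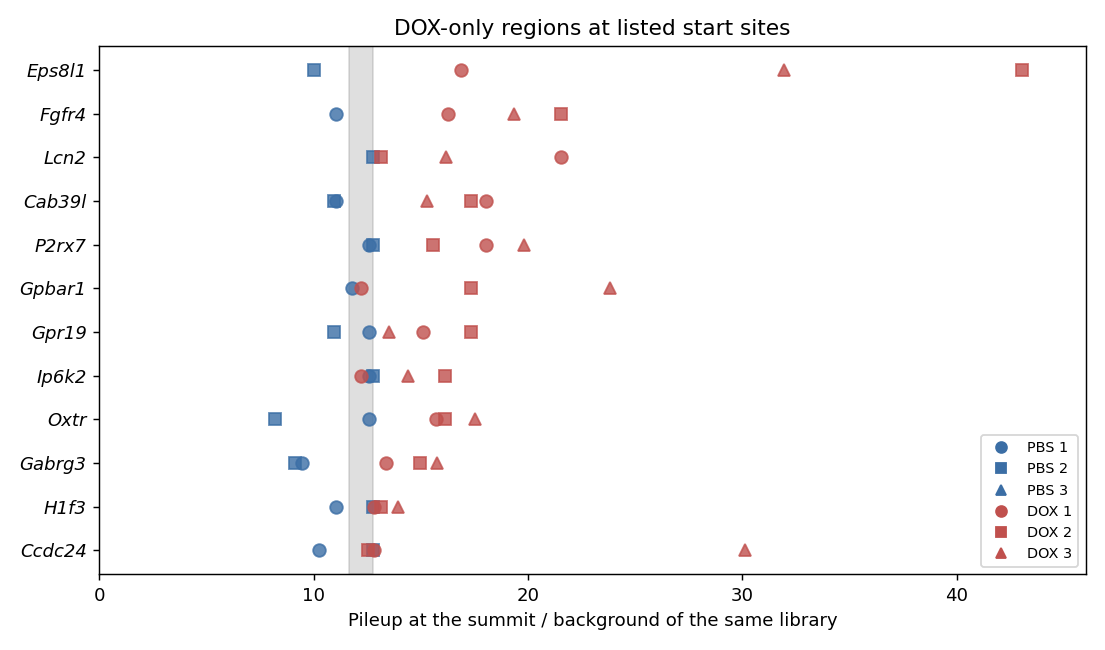
Height of the 12 DOX-only regions at listed start sites, as pileup over the background of the same library (x axis), by gene (y axis), in every library whose full list holds a peak there. The grey band spans the weakest kept peaks of 5 libraries, 11.6 to 12.8. The rule puts the blue PBS points within it or to its left, and PBS replicate 3 listed none of these regions.

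In all, 12 motifs were searched on both strands in the 250 bases before the start, and their share is given beside that in the 21020 listed windows of protein-coding genes. The SP/KLF motif GGGCGG was in 8 of the 12 promoters and in 43.0% of all windows, and the NF-kB motif (3 G, any 5 bases, 2 C) in 7 and in 52.3%. The C/EBP motif TTGCNNAA was in 2, those of Lcn2 and Gabrg3, and in 9.18% of all. The p53 motif, a single decamer of its paired site, was in 2, Gpbar1 and Ccdc24, and in 6.29%. The AP-1 motif TGANTCA was only in P2rx7 (6.18% of all windows), the ETS motif CCGGAAG only in Ccdc24 (9.09%) and the TEAD motif GGAATG only in Gpr19 (11.6%). No promoter of the 12 held the motifs of CRE, TGACGTCA (1.95% of all windows), EBF, TCCC and GGGA around any 2 bases (0.837%), RUNX, TGTGGTT (3.83%), the glucocorticoid receptor, GNACA and TGTNC around any 3 bases (0.362%), or the E-box CAGCTG (12.2%). Matches of SP/KLF and NF-kB overlapped in several promoters. The median GC content was 54.4% in the 12 and 55.6% in all windows.

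The DOX-only regions were weak peaks, which a choice by a cutoff on rank favours. The median rank over the 3 DOX libraries had a median of 57603 among the 623, with quartiles of 53997 and 60653.5, and by that measure no region was in the upper 50% of the list. The median pileup was 25, 26 and 35 fragments in DOX replicates 1, 2 and 3, and the median height 14.5, 15.5 and 15.7 times the background. Only 8 regions reached 20 times the background in all 3 DOX libraries. In 381 regions (61.2%) the 3 DOX summits lay within 50 bp, and 621 regions consisted of 1 peak in each DOX library. The rule and the narrow regions bound this distance, and it was not compared with that in other regions. The median region was 327 bp wide (range 147 to 1794), against 526 bp for all 78613 regions.

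The same sites were mostly visible in PBS below the cutoff. PBS replicate 1 listed 435 of the 623 (69.8%) at a median rank of 72497 and a median height of 11.02 times the background. PBS replicate 2 listed 445 (71.4%), at a median rank of 71680 and 10.9 times. Both listed 350 regions and neither listed 93. The list of PBS replicate 3 ends at the cutoff and could hold none. Where a PBS library listed the site, its summit lay within 50 bp of the DOX summit in 438 of 530 regions (82.6%), with a median shift of 20.8 bp. Members just inside the rule were near Eefsec, Gm40378 and Sla, which ranked 65445, 65440 and 65438 in their weakest DOX library. Just outside, after the Oxtr region, came regions of Gramd1b and Clmp with ranks of 65479 and 65481 in DOX replicate 2. All these peaks, inside and outside, were tied in −log10 p with the last kept peak of their library.

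**Figure D2:**
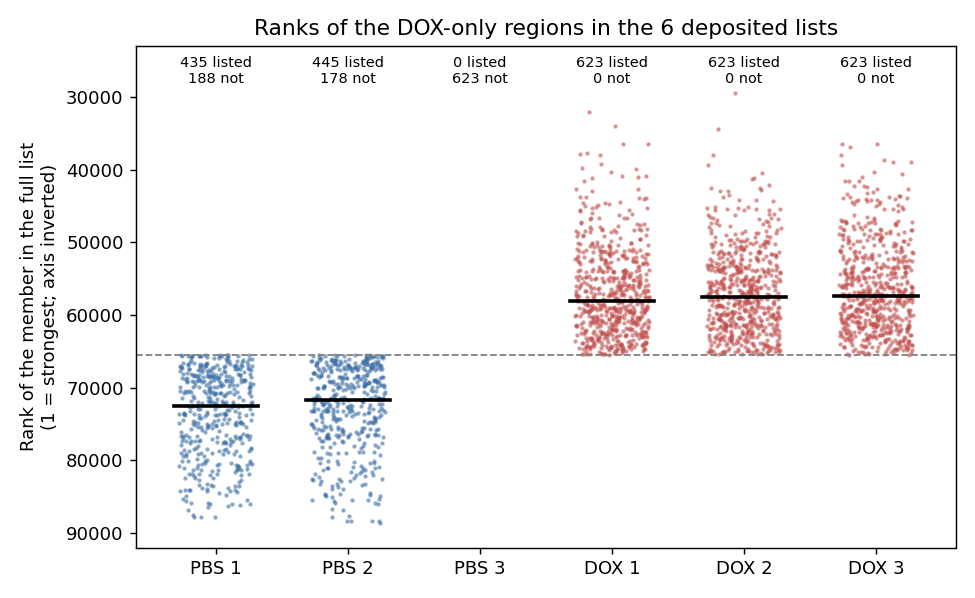
Rank of each of the 623 regions in the full deposited list of each library (y axis, inverted so that strong peaks are at the top); points are regions, black bars medians, and the dashed line is the common list length. The rule puts DOX points above the line and PBS points below it; the medians are 57371 to 58015 in DOX and 72497 and 71680 in PBS replicates 1 and 2.

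Peaks tied in −log10 p at the cutoff touched many regions. Pileups are whole numbers, so 2466 peaks of PBS replicate 1 and 2723 of PBS replicate 2 shared the score of the last kept peak, and 561 and 586 of them were kept by their position in the file. With every tied peak counted for PBS and none for DOX, 386 of the 623 regions (62.0%) remained. This left 7 of the 10 regions with the highest −log10 p at gene ends, without Lcn2, Gsr and Nudt12. The share of regions that were DOX-only ran from 0.418% on the X chromosome to 1.28% on chromosome 13, and the latter was 0.670% among regions free of ties. Tied peaks were kept in the order of the files, chromosome 1, 10 and so on, so differences between chromosomes carry that order too.

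In libraries that took no part in the choice, regions chosen in DOX had a kept peak more often in DOX, and often in PBS too. For each of the 9 pairs of 1 DOX and 1 PBS library, regions were chosen from the other 4 libraries, with a kept peak in both DOX and in neither PBS library, which gave 1496 to 2326 regions. A mean of 65.5% of these (range 56.7% to 71.2%) had a kept peak in the left-out DOX library and 42.8% (29.6% to 50.6%) in the left-out PBS library. The DOX share was higher in 9 of 9 pairs. With PBS replicate 1 or 2 left out the PBS share was 46.9% to 50.6%, and with PBS replicate 3, the shallowest, 29.6% to 30.2%. Regions chosen the opposite way, from 2 PBS and against 2 DOX libraries, were in the left-out PBS library in 45.2% and in the left-out DOX library in 35.4%, with the PBS share higher in 9 of 9 pairs. That direction did not hold with the full lists, where the means were 36.8% in the left-out PBS and 42.7% in the left-out DOX library and the DOX share was higher in 4 of 9 pairs. The pairs share libraries, so no p is given, and the part of depth in these shares was not tested. No share for other regions of like rank stands beside them.

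**Figure D3:**
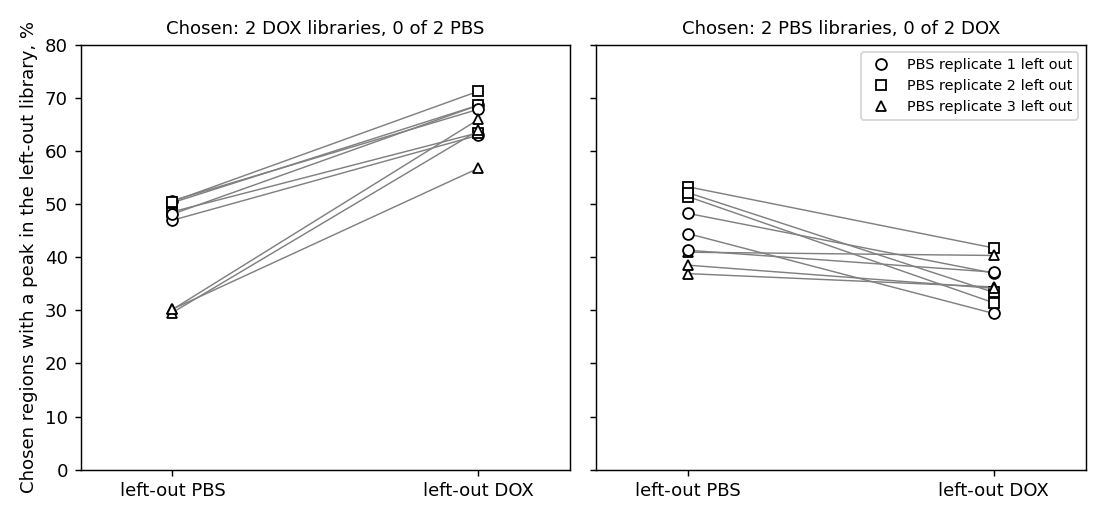
Share of chosen regions with a kept peak in the left-out PBS and DOX library (y axis, %); each line is 1 of 9 pairs, and symbols show which PBS library was left out. Lines rise towards DOX for regions chosen in DOX (left), from a mean of 42.8% to 65.5%, and fall for regions chosen in PBS (right), from 45.2% to 35.4%.

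DOX-only regions grew more frequent towards the bottom of the lists, which the rule, a cutoff on rank, favours. Among regions held by all 3 DOX libraries they were 1.09% in all, and, with ranks split into 10 groups of equal span, 0 in the 5 stronger groups, 1.53% in group 8, 5.93% in group 9 and 14.5% in group 10. Of the 623, 53 (8.51%) had their summit within 1 kb of a gene end, 328 (52.6%) lay elsewhere inside a protein-coding gene and 242 (38.8%) outside genes. Gene ends are the outer ends of gene spans, so the start-site regions of Oxtr, Gpr19, Ip6k2 and Cab39l counted as inside. Regions held by all 6 libraries lay at gene ends in 22.9% of cases, but these were mostly stronger. Within the ranks that span the middle of the DOX-only regions, 53997 to 60653.5, 27 of 311 DOX-only regions (8.68%) were at a gene end, and 79 of 1420 regions of all 6 libraries (5.56%). Regions of 3 DOX and 1 PBS library in that band had 4.98%, and of 3 DOX and 2 PBS libraries 5.80%. Over the 10 rank groups the order was not the same throughout, with 6.67% of DOX-only regions and 7.04% of regions of all 6 libraries in group 8. Regions are not replicates, and the difference was not tested.

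Many DOX-only regions were close neighbours of shared ones. Of the 623, 126 (20.2%) lay within 1 kb of a region held by all 6 libraries, against 14.3% of all regions and 7.14% of the 238 regions listed in PBS only (0.303% of all regions). In the rank band the share was 23.2%, against 18.7% for regions of 3 DOX and 1 PBS library, 13.2% for those of 3 DOX and 2 PBS libraries and 13.3% for those of all 6. The 93 regions that no PBS library listed had 9.68% and were narrower, with a median width of 254 bp against 344 bp for the other 530. The median distance to a shared region was 5.60 kb for all 623. DOX-only regions were scattered: the median distance to the next one was 876 kb, and 74 had another within 100 kb.

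**Figure D4:**
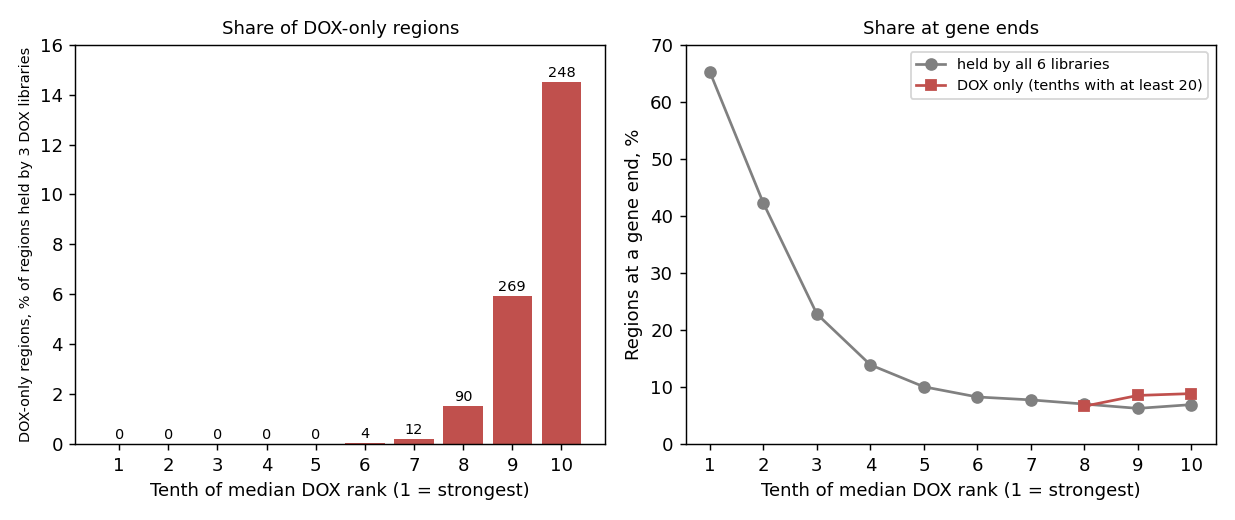
Left, DOX-only regions as a percent of regions held by all 3 DOX libraries, by group of the median DOX rank (10 equal spans), with their number on each bar; right, percent of regions at a gene end for regions of all 6 libraries (grey) and DOX-only regions (red, groups with at least 20). The gene-end share of shared regions falls from 65.2% in group 1 to 6.28% in group 9, and the DOX-only values of 6.67% to 8.87% lie near it. The rule favours ranks near the cutoff, so the rise on the left is a description only.

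Among the strongest DOX-only regions, beyond Eps8l1, were several inside genes. Npr3, the clearance receptor of natriuretic peptides, had 26.2, 34.1 and 26.1 times the background in DOX and 10.2 and 9.12 in PBS replicates 1 and 2. Slc41a3, a magnesium transporter gene, had 27.9, 26.3 and 31.9 in DOX and no peak in any PBS list (chromosome 6, 90607206 to 90607535). Prkd1, a protein kinase gene (chromosome 12, 50352527 to 50352791), had 25.6, 19.1 and 21.6 in DOX and 11.02 in PBS replicate 1. The other strong regions lay inside Pkhd1, Rars2, Enpep, Ttc3 and Lrch1 and 9644 bp from Lhx2, a factor of limb mesenchyme. In DOX these 6 were 12.2 to 31.98 times the background, and where PBS replicates 1 and 2 listed them they were 7.09 to 12.8 times.

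The strongest of the 93 regions that no PBS list held, after Slc41a3, lay inside Rnf130 (chromosome 11, 50114449 to 50114617) and Traf3ip1 (chromosome 1, 91523880 to 91524044). Rnf130, a ubiquitin ligase gene, had 21.5, 23.3 and 28.8 times the background in DOX. Traf3ip1, a gene of transport in cilia, had 21.5, 23.3 and 24.3. The lowest listed peaks were 5.51, 5.47 and 8.97 times the background in PBS replicates 1, 2 and 3, so weaker peaks there would not have been listed. Blk, Ccdc87, Trp53inp1, Nme7, Tm6sf1, Dcaf12 and Adam28 completed the 10, with 12.8 to 23.9 times in DOX. Of these, Blk and Adam28 had the region at a gene end.

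At gene ends the regions with the highest −log10 p, besides Eps8l1, Fgfr4 and Lcn2, belonged to Blk, Ap3d1, Traf6, Helz, Adam28, Nudt12 and Gsr. Traf6 encodes a ubiquitin ligase that carries signals from Toll-like and interleukin 1 receptors to NF-kB. Its region was 20.4, 13.2 and 17.5 times the background in DOX and 10.2 and 10.0 in PBS replicates 1 and 2. Ap3d1, a subunit of the AP-3 vesicle coat, had 22.1, 21.5 and 31.0 in DOX and 11.8 and 10.9 in PBS (chromosome 10, 80741026 to 80741656). Gsr, glutathione reductase, had 16.3, 19.1 and 16.2 in DOX, and 12.6 and 11.9 in PBS replicates 1 and 2, of which the first was tied with the cutoff.

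Genes of the marrow stroma held a few of the regions. At least 1 DOX-only region was assigned to 525 protein-coding genes (2.43% of 21631), by the nearest gene span within 100 kb, and 66 regions had no such gene. Genes with a DOX-only region had a median of 8 regions of any kind, against 2 for the 15423 genes with any region, so shares are given per region. Of regions assigned to protein-coding genes 0.784% were DOX-only. For the 30 stromal and niche genes this was 8 of 487 (1.64%), at Cxcl12, Ebf1 and Fstl1 with 2 each and Prrx1 and Tgfbr2 with 1 each. The weaker Ebf1 region and the wider Fstl1 region depended on the order of tied peaks. The same genes had 2 PBS-only regions, of which 1 was at Cxcl12. These lists were chosen with earlier results of these data known, and none was tested.

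Tgfbr2, a receptor of TGF-beta, had a region 68528 bp from the gene (chromosome 9, 116243755 to 116244086). It was 17.4, 16.1 and 17.5 times the background in DOX and 10.0 in PBS replicate 2. Prrx1, a homeobox factor of limb mesenchyme, had 12.8, 17.3 and 19.3 in DOX and no PBS peak. The Cxcl12 region inside the gene was 16.3, 22.7 and 15.7 in DOX and 9.12 in PBS replicate 2. Ebf1, a factor of MSPCs and B cells, had 16.9, 14.3 and 17.1 at the stronger of its regions (chromosome 11, 44788113 to 44788444), with 7.87 and 10.0 in PBS replicates 1 and 2. The wide Fstl1 region (1513 bp) had 12.2, 16.7 and 12.6 in DOX and 11.8 and 11.9 in PBS, values that nearly met.

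Fat and bone genes held few DOX-only regions, and the difference between them was not tested. Genes of adipocytes held 4 DOX-only of 225 regions (1.78%), beside 0.784% over all genes, and 1 PBS-only region. The DOX-only regions lay near or in Acsl1, an acyl-CoA synthetase, Cidec, a lipid droplet protein, Gpd1, which makes glycerol phosphate, and Zfp423, a factor of preadipocytes. Acsl1 had 14.5, 19.7 and 22.9 times the background in DOX and 11.02 and 12.8 in PBS replicates 1 and 2, the last tied with the cutoff. Zfp423 had 12.2, 15.5 and 15.3 in DOX, with no PBS peak. Genes of osteoblasts held 0 of 250, and 0 PBS-only regions. Cartilage genes had 1 of 83, at Sox6, and pericyte and smooth muscle genes 1 of 93, at Lmod1. The Sox6 region depended on the order of tied peaks.

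Signalling genes stood near the overall share. TGF-beta and BMP genes held 4 of 389 regions (1.03%), at Bmp5, Fst, Id3 and Smad7. Fst, follistatin, which binds activins, had 20.9, 17.3 and 18.4 times the background in DOX and 11.02 and 10.9 in PBS. Bmp5, a bone morphogenetic protein, had 15.1, 22.7 and 16.2 in DOX and 9.45 and 7.30 in PBS. Wnt genes held 2 of 312, at Fzd1 and Tcf7l2, and Notch genes 1 of 240, at Rbpj. Matrix genes held 4 of 498 (0.803%), of which Loxl1, a crosslinking enzyme of elastin, was the highest with 21.5, 20.3 and 17.1 in DOX against 8.66 and 10.9 in PBS. Limb factors had 3 of 270, at Lhx2, Meis2 and Pitx1, and nuclear receptor and clock genes 3 of 387, at Ppara, Rora and Tsc22d3. Of the regions named here, those at Id3, Rbpj, Pitx1 and Rora depended on the order of tied peaks.

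Genes of p53 and its targets had 2 of 132 regions (1.52%), at Trp53inp1 and Zfp365, and genes of senescence and secretion 2 of 144 (1.39%), at Ccl7 and Vegfa, beside 0.784% over all genes. Trp53inp1, a p53 target that promotes cell death, had 16.3, 20.9 and 18.4 times the background in DOX and no PBS peak (chromosome 4, 11166625 to 11166791). Ccl7, a monocyte chemokine, had 13.95, 17.3 and 16.2 in DOX and 11.02 and 10.0 in PBS. DNA damage and repair genes held 0 of 60, AP-1 and immediate early genes 0 of 170, NF-kB genes 0 of 98 and interferon and DNA sensing genes 0 of 65. The antioxidant list had 1 of 122, at Gsr.

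**Figure D5:**
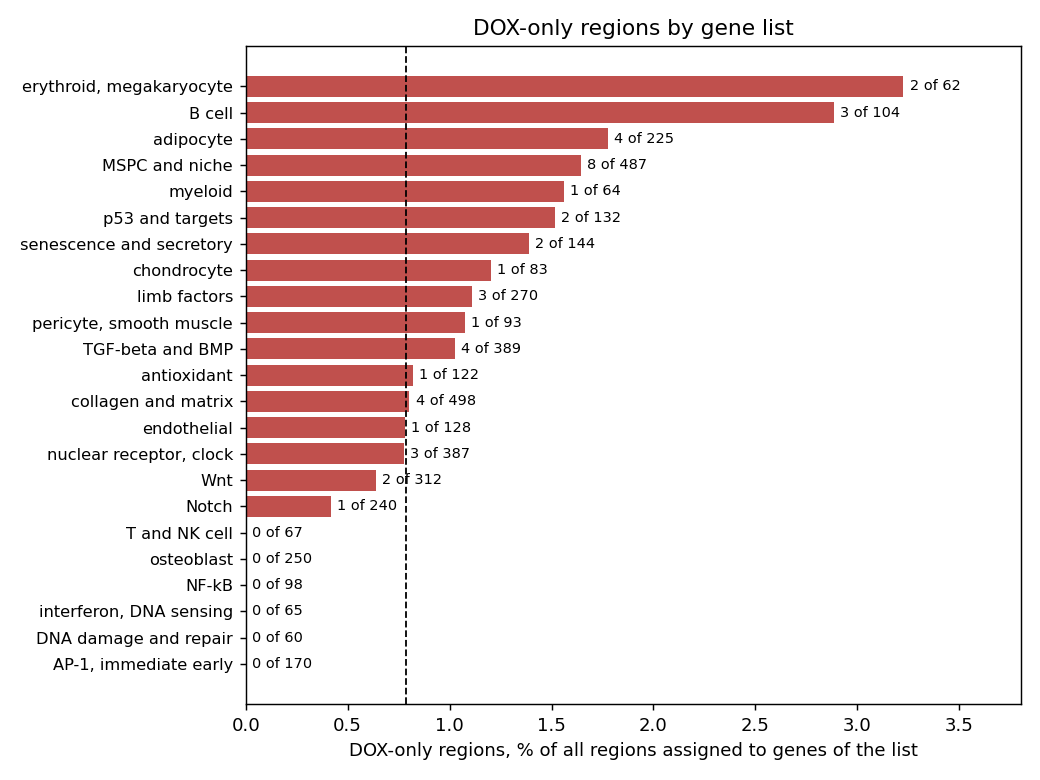
DOX-only regions as a percent of all regions assigned to the genes of each of 23 lists (x axis), with the counts beside the bars; the dashed line is 0.784%, the share over all protein-coding genes. Counts are 0 to 8 per list, so a single region moves a short list far.

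Genes of other marrow cells held 7 of the regions, of which the 2 at Ebf1 were also counted among the stromal 8. The shares of the erythroid and megakaryocyte list (3.23%) and of the B cell list (2.88%) were the highest of the 23 lists, on counts of 2 and 3. Among these, the Vwf region and the weaker Ebf1 region depended on the order of tied peaks. B cell genes had 3 of 104, 2 at Ebf1 and 1 at Blk. Blk, a kinase of B cells, had 14.5, 22.7 and 20.2 times the background in DOX and no PBS peak (chromosome 14, 63372592 to 63372765). Apart from Blk, whose presence in DOX alone the rule fixes, 5 of the 20 B cell genes had an open end in each of the 6 libraries. Cd79a, Cd79b, Ms4a1 and Pax5 had no summit at a gene end in any library. The myeloid list had 1 of 64, at Siglec1, a sialic acid receptor of macrophages, with 12.2, 13.8 and 17.1 in DOX and 7.87 and 7.30 in PBS. The list's open ends numbered 9 to 10 of 29 in PBS and 9 in DOX, where Siglec1 is counted by the rule, and Csf1r, Mpo and Elane had none. The erythroid and megakaryocyte list had 2 of 62, at Vwf and Gp9, with 6 to 8 open ends of 26 in PBS and 7 to 8 in DOX. The endothelial list had 1 of 128, at Erg, and 11 to 12 of 30 in both groups, and the T and NK cell list 0 of 67. The part of other cells in these regions was not tested.

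Only Fry and Ercc6l2 were assigned 3 DOX-only regions each, among 22 and 17 regions in all, and 28 genes had 2. Ercc6l2 belongs to a family of DNA repair helicases. Its region inside the gene (chromosome 13, 63869423 to 63869816) was 13.4, 15.5 and 15.7 times the background in DOX, and no PBS library listed it. Of the other 2, one was 93615 bp from the gene. The Fry regions were 12.2 to 17.5 times in DOX, and each was listed by both PBS replicates 1 and 2, at 6.39 to 12.8 times. The Fry regions starting at 150116697 and 150464985 on chromosome 5 depended on the order of tied peaks. So did the Ercc6l2 region starting at 63929362, so neither count of 3 was free of ties. Both DOX-only and PBS-only regions were assigned to 14 genes.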

How the data were processed

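ATAC-seq libraries were analysed, 3 PBS and 3 DOX, grouped and numbered by their titles. The authors deposited 1 peak list per library, in build mm10 per the submitters' processing notes, which name MACS2 2.2.7.1 and Bowtie2 2.4.5 among other tools. What settings and read filters were used was not given in the sources used here. For each peak the deposited lists hold its score, its fold (a ratio to background), −log10 of p and of q, and the other kind of value, a summit position in bp. All are the authors' own values per peak, with no scaling across libraries.

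The fold and −log10 p were solved for a constant background under the Poisson model of MACS2, which met 100% of −log10 p under 200 within 1% and gave whole pileups within 0.05. No reads were counted and no model was fitted, so no test was made. Peaks were ordered by −log10 p, then fold, then position in file order, kept to the length of the shortest list, and merged where they shared at least 1 bp. A region's summit is the median over the libraries that hold it. Genes came from RefSeq spans of GRCm38.p6 without strand or exons, so exon, intron and UTR were not told apart. A gene end is either end of a span. Promoter windows give strand and start, and the table is not complete. In 1627 of 1627 overlapping window pairs on opposite strands the sequences were reverse complements. Of 603 listed symbols 602 matched.

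Members and gene lists were chosen with earlier results of these data known. The named regions are the 10 with the highest median −log10 p, the 10 highest in no PBS list, the 10 highest at gene ends, all with a summit in a promoter window, genes with 3 or more, genes of the lists, and those nearest the cutoff. Scripts, in Python 3.11.15, numpy, pandas and scipy 1.17.1, were tested on simulated data. Alternatives were list length, ranking, merging, overlap, window, each library left out and the handling of ties.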

Additional observations from a re-analysis of the deposited data

How the results depend on the processing

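The number of DOX-only regions followed the lists used. It was 2151 with the full deposited lists, which held 93 of the 623, 293 with lists cut to 50% of that length, which shared 0 with the 623, and 361 with peaks at least 20 times the background, which shared 8. With each library left out it was 955 (without PBS replicate 3) to 1457 (without PBS replicate 2), the rule then asking for 1 library less. Ranking by fold, merging over gaps of 100 bp and the rule that summits lie within 200 bp gave 623, 620 and 647. The 4 ways to treat ties were chosen after seeing the data: ordering by chromosome number gave 642 regions, keeping all tied peaks 536, dropping all 563, and keeping them in PBS while dropping them in DOX 386. The share at a gene end was 5.82% with peaks at least 20 times the background, 14.9% with a window of 2.5 kb and 6.35% to 8.52% with each library left out, beside 8.51% (95% exact binomial interval 6.44% to 10.98%, counting error only). If a PBS peak had to cover at least 50% of the region, PBS replicate 1 listed 42.1% and PBS replicate 2 49.1% of the 623. The shares in left-out DOX and PBS libraries were 66.9% and 33.0% with full lists and 66.2% and 37.8% with lists of 50% the length. For regions chosen in PBS, full lists gave 36.8% in the left-out PBS and 42.7% in the left-out DOX library. Lists of 50% the length gave 53.6% and 33.6% for these. No paired analysis was possible because the result comes from the rule and from no test. Median pileups of 25 to 35 fragments in DOX and the shallow PBS replicate 3 limit what the lists can resolve.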
